A study of Mus musculus with 2 samples.

Results

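Heme synthesis enzymes were followed in primary mouse megakaryocytes, from which platelets are shed, by sequencing of polyadenylated RNA. The members are 8 genes taken by name, Alas1, Alas2, Alad, Uros, Urod, Cpox, Ppox and Fech, and all 8 were found among 43346 Ensembl genes by matching gene identifiers to symbols. They were kept whatever their level. The third enzyme of the route is not among them and was not analysed here. Per the labels, the cells came from embryos of day 14.5 with males and females pooled, and no genetic change or agent is named. The study holds 1 group of 2 paired-end libraries, numbered replicates 1 and 2, without another group to set them against, so conditions could not be compared. Both libraries are labelled biological replicates but cite the same biosample and donor, so the spread between them may be technical. Depth differed 18.5-fold, with 42099216 expected counts (estimated fragments) in replicate 1 and 2275922 in replicate 2.

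Heme is built by a chain of enzymes that starts and ends in the mitochondrion and runs through the cytosol in between. The first step, which joins glycine to succinyl-CoA, limits the rate and has a pair of gene forms: Alas1, used in most tissues and repressed by heme, and Alas2, used by red cell precursors. The last step, by Fech, puts iron into the ring. Alas2 is a known target of Gata1, a factor that red cell precursors and megakaryocytes share, and its messenger RNA carries an iron-responsive element, a stem and loop that iron regulatory proteins bind when iron is scarce.

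The labelled cell type was checked against marker lists. All 19 megakaryocyte markers reached a mean of 1 TPM (a share of all transcripts that allows for their length), and their median level was 334 TPM in replicate 1 and 336 TPM in replicate 2. Besides globins, which are given below, 7 of 15 erythroid markers reached that level. The summed level of the 15 was 234 and 345 TPM in replicates 1 and 2. The highest were Epor at 143 and 174 TPM, Car2 at 50.7 and 128 TPM and Sptb at 24.75 and 23.96 TPM. Rhag and Rhd, which encode membrane proteins of the red cell, had no counts. The summed level of 15 macrophage markers was 978 and 237 TPM in replicates 1 and 2, and 9 of them reached a mean of 1 TPM. The highest were C1qc at 344 and 145 TPM and C1qb at 192 and 58.95 TPM, while Cd163, Timd4 and Clec4f had no counts. For 14 granulocyte markers the sum was 882 and 151 TPM. For 12 markers of mast cells, basophils and eosinophils the sum was 54.9 and 6.45 TPM. Of 13 hepatocyte markers, 2 reached a mean of 1 TPM, Trf at 54.7 and 7.9 TPM and Apoa1 at 1.39 and 1.82 TPM. No counts were found for 7 of the 13, among them Alb, the gene of serum albumin. In bulk RNA, fewer cells of a type and less RNA per cell cannot be told apart.

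Sequences are shown for the pair of genes on which the results turn most, Alas2 because it was nearly unread and Cpox because it had the lowest TMM-scaled ratio between the libraries among the enzymes with at least 100 counts on average. The upstream stretches are from the RefSeq promoter table on GRCm38.p6, on the plus strand, 5′ to 3′, and stop before the first annotated transcript or the RefSeq start. The Alas2 stretch is chrX:150547167-150547374 and the Cpox stretch is chr16:58669958-58670207. Capitals mark TTATC, the reverse complement of GATAA, the core that GATA factors recognise.
Alas2 upstream: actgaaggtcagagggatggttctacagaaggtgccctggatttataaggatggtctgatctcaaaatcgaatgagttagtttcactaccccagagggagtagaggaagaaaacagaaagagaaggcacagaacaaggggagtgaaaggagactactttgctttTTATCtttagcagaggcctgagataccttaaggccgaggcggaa
Cpox upstream: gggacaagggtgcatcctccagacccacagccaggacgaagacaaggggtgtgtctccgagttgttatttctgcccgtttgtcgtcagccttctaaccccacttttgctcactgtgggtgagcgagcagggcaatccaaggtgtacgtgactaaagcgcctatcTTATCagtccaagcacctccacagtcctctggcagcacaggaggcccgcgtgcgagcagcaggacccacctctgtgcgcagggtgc

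Each stretch held 1 GATAA match on either strand, at 150547331 of chromosome X for Alas2 and at 58670122 of chromosome 16 for Cpox. Over the 250 bases before each RefSeq start, GATAA was present in 3 of 10 windows of 7 members, those of Alas2 and Cpox and 1 of the windows of Uros. The same motif was present in 22.6% of all 32851 windows of that length. CACCC, the core that Kruppel-like factors recognise, was counted on either strand and was present in 5 of the 10 windows, against 52.0% of all windows. Cpox held 4 CACCC matches. The full Alas2 window held 3, all in its last bases, which lie inside an annotated transcript and are not printed. The windows of Urod and Ppox held neither motif. A match is a description of these letters and not a measured binding site.

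The iron-responsive element of Alas2 is shown because it is the textbook difference between the messengers of both first-step genes. It lies in the first exon and 5′ untranslated region of transcript Alas2-201, at chrX:150547459-150547483 of GRCm38 on the plus strand (GENCODE M21). Capitals mark the loop.
Alas2 element: tggttcgtcctCAGTGCagggcaac

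The search used CNNNNNCAGTGN on the transcript strand alone, a bulged C followed by 5 bases of stem and the loop. In Alas2-201 the match began at base 90 of a 126-base untranslated region, and all 5 stem bases paired across the loop, G with U allowed. Both coding transcripts of Alas2 held it. Over the last 126 bases before the start codon, the letters alone were present in 985 of 14288 genes (6.89%) and a match with 5 paired stem bases in 12 genes (0.0840%). Of the 7 members with a searched untranslated region, the letters were found in Alas2 and in 2 of 8 transcripts of Uros, where at most 3 stem bases paired. No match was found in Alas1, Alad, Urod, Cpox or Ppox.

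Of the 8 enzymes, 6 reached a mean of 1 TPM, against 22.7% of all 43346 genes. In replicate 1 alone 7 members reached 1 TPM, and in replicate 2 alone 6. Uros and Alas2 lay below it by the mean. The levels of the 8 genes added up to 174 TPM (replicate 1) and 129 TPM (replicate 2). The mean of these sums was 152 ± 32.2 TPM (SD, n = 2). All levels below are TPM with the mean and SD over the 2 libraries. A ratio is replicate 2 over replicate 1 by expected counts scaled with edgeR TMM factors, and its exact 95% interval covers counting error alone. With 1 library a side, a ratio describes these libraries and has no replicate check.

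**Figure D1:**
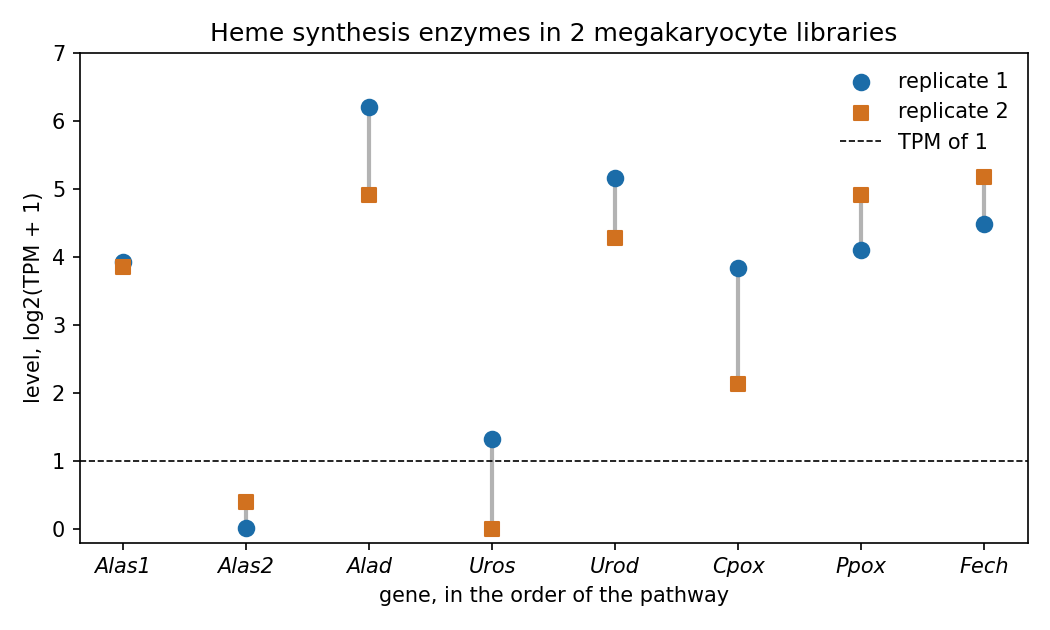
Level of each enzyme, as log2(TPM + 1), in the order of the pathway, with circles for replicate 1, squares for replicate 2, a line joining them and a dashed line at 1 TPM. By TPM, Alas1 lies at nearly the same level in both libraries. Cpox and Alad lie lower and Ppox and Fech higher in replicate 2. Alas2 lies below 1 TPM in both, from 1 count in each.

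Alas1 (ENSMUSG00000032786, chr9:106233455-106248654 of GRCm38, minus strand), the form of 5-aminolevulinate synthase that most tissues use, was read at 14.3 TPM in replicate 1 and 13.4 TPM in replicate 2 (13.9 ± 0.587 TPM). These values rest on 785 and 24 expected counts. Its SD was the smallest among the 6 members above 1 TPM. The effective length given to Alas1 was 1402 bases in replicate 1 and 961 in replicate 2. Its near-equal TPM values thus rest on unlike lengths. The scaled count ratio was 0.766 (interval 0.488 to 1.15), which spans 1. Scaled by total counts alone the ratio was 0.566, and its interval then lay below 1.

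Alas2 (ENSMUSG00000025270, chrX:150547375-150570638, plus strand), the erythroid form of the same enzyme, had 1 expected count in each library. That count stood for 0.01 TPM in replicate 1 and 0.31 TPM in replicate 2 (0.16 ± 0.212 TPM). In replicate 2, 3 counts of Alas2 would stand for 0.926 TPM, so that library bounds its level only loosely. The ratio of 25.1 between the libraries has an interval from 0.319 to 1968, so no difference was detectable at this depth. Within each library Alas2 can be set against Alas1 per effective length. In replicate 1 Alas1 exceeded Alas2 1065-fold (interval 191 to 42103). In replicate 2 the excess was 43.6-fold (interval 7.10 to 1791), and the intervals of both libraries overlap. The excess in replicate 2 rests on Alas1 forms not annotated as coding. By coding forms alone Alas1 stood at 0 TPM there and Alas2 at 0.31 TPM, from 0 and 1 counts. The posterior mean estimates that the authors also deposited put Alas2 at 0.17 and 2.66 TPM. With them the ratio of the mean level of Alas2 to that of Alas1 was 0.109 in place of 0.0115. Those estimates give a level above 0 to genes without counts, such as Uros at 6.85 TPM in replicate 2.

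Likeness of level was measured over the 2 libraries as the distance in log2(TPM + 1) to 177 other listed genes. The nearest to Alas2 were Fgb, a fibrinogen chain of the liver, at 0 and 0.15 TPM, and Hnf4a, a hepatocyte factor, at 0.08 and 0.13 TPM. Their distances were 0.188 and 0.234 log2 units. The genes nearest to Alas1 were Gp6, the platelet collagen receptor, at 10.9 and 11.8 TPM, then Clec1b, a platelet C-type lectin receptor, at 18.8 and 11.3 TPM, and Eif2ak1, a kinase that heme inhibits, at 12.4 and 18.7 TPM. Over 2 libraries this likeness is one of level and nothing more.

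Alad (ENSMUSG00000028393, chr4:62509169-62519918, minus strand), which joins a pair of aminolevulinate molecules into porphobilinogen, had the highest mean of the 8 genes. It was read at 72.9 TPM in replicate 1 and 29.2 TPM in replicate 2 (51.1 ± 31.0 TPM), from 3069 and 58 counts. Among the 9858 genes at a mean of 1 TPM or more it ranked 2085, and 21.1% of them were higher. The ratio was 0.474 (interval 0.359 to 0.614), so replicate 2 was 2.11-fold lower. The ratio was 0.346 with the trend on GC content removed and 0.300 by posterior means.

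Uros (ENSMUSG00000030979, chr7:133686243-133710072, minus strand), which closes the ring into uroporphyrinogen III, was read at 1.51 TPM in replicate 1, from 80 counts, and had 0 counts in replicate 2 (0.755 ± 1.07 TPM). A count of 0 there allows up to 3 counts. That is 1.68 TPM at the effective length of 959 bases given to Uros in replicate 2. In replicate 1 that length was 1348 bases, so the TPM values of the libraries rest on unlike lengths. By TMM-scaled counts, 3 counts in replicate 2 would be a ratio of 0.940. At the level of replicate 1, replicate 2 would have held 3.19 counts by the TMM scaling, with an upper limit of the ratio of 1.18, so a difference was not detectable at this depth. Scaled by total counts alone it would have held 4.32 counts, and the upper limit was 0.873, below 1.

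Urod (ENSMUSG00000028684, chr4:116989965-116994413, minus strand), which removes carboxyl groups from the ring, stood at 34.9 TPM in replicate 1 and 18.5 TPM in replicate 2 (26.7 ± 11.6 TPM), from 749 and 15 counts. Its ratio was 0.502 (interval 0.280 to 0.833). That is just inside the 2-fold line, while Alad lies just past it. By posterior means Urod stood at 35.95 and 39.0 TPM, a ratio of 1.09, so its direction turned under that estimate.

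Cpox (ENSMUSG00000022742, chr16:58670292-58717636, plus strand), the coproporphyrinogen oxidase of the intermembrane space, was read at 13.3 TPM in replicate 1 and 3.37 TPM in replicate 2 (8.33 ± 7.01 TPM), from 1589 and 19 counts. Replicate 2 was 3.34-fold lower, at a ratio of 0.300 (interval 0.180 to 0.470). Removal of the trend of the ratio on GC content over all genes moved it to 0.484, which is nearer to 1 than the value of Alad under that correction, and posterior means moved it to 0.193. It kept the sixth place in both libraries.

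Ppox (ENSMUSG00000062729, chr1:171275990-171281186, minus strand), which oxidises protoporphyrinogen on the inner membrane, stood at 16.2 TPM in replicate 1 and 29.0 TPM in replicate 2 (22.6 ± 9.001 TPM), from 1033 and 69 counts. The ratio was 1.67 (interval 1.29 to 2.14). Scaled by total counts alone it was 1.24, with an interval that spans 1.

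Fech (ENSMUSG00000024588, chr18:64452914-64490251, minus strand), the ferrochelatase that inserts iron, was read at 21.3 TPM in replicate 1 and 35.2 TPM in replicate 2 (28.3 ± 9.81 TPM), from 2311 and 180 counts. It was the highest enzyme of replicate 2 and the third of replicate 1. The ratio was 1.95 (interval 1.67 to 2.27). With DESeq2 size factors it was 2.14 and with the GC trend removed 2.66, both past 2-fold, and by posterior means it was 1.20.

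**Figure D2:**
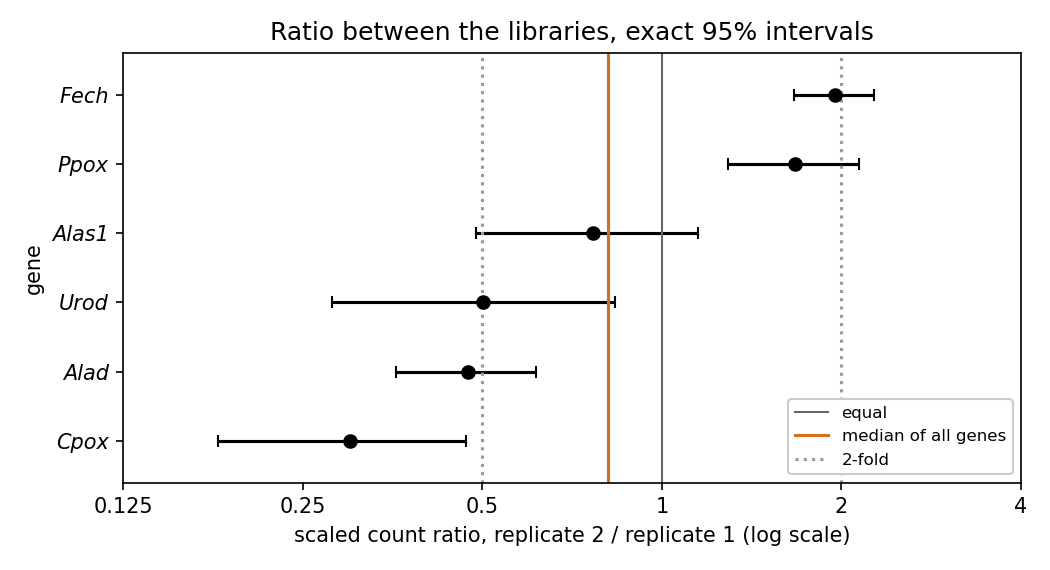
Scaled count ratio of replicate 2 over replicate 1 on a log axis for the 6 enzymes with a mean of at least 100 counts, with exact 95% intervals of counting error, a grey line at equal levels, an orange line at the median of all genes and dotted lines at 2-fold. The intervals of Cpox, Alad and Urod lie below 1, those of Ppox and Fech lie above 1, and that of Alas1 spans it.

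By mean level the order was Alad, Fech, Urod, Ppox, Alas1, Cpox, Uros and Alas2. The ranges of the 2 libraries overlapped between neighbours among the first 4, so Alad, Fech, Urod and Ppox were not separated step by step. They did not overlap between Ppox and Alas1, between Alas1 and Cpox or between Cpox and Uros, and they overlapped again between Uros and Alas2. Alas1 and Cpox held the fifth and the sixth place in each library, and the other 6 members changed place between the libraries. The median of all 9858 genes at a mean of 1 TPM or more was 10.2 TPM, which was below the means of Alad, Fech, Urod, Ppox and Alas1 and above that of Cpox.

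The makeup of the RNA of the listed members can be read as shares of their summed level, which do not depend on the scaling between libraries. The shares do depend on effective lengths, which differed between replicates 1 and 2. Among others they were 1402 and 961 bases for Alas1, 547 and 437 for Urod and 1623 and 1283 for Ppox. Alad took 41.8% of the sum in replicate 1 and 22.6% in replicate 2, and Urod 20.02% and 14.3%. Fech took 12.2% and 27.3%, and Ppox 9.30% and 22.5%. Alas1 took 8.18% and 10.4%, and Cpox 7.61% and 2.61%. Alad, Urod and Cpox thus held smaller shares in replicate 2 and Ppox and Fech larger ones. By posterior means the share of Urod was 20.7% in replicate 1 and 29.1% in replicate 2. Uros held 0.865% in replicate 1, and Alas2 0.00573% and 0.240%.

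Of the 6 members with a mean of at least 100 counts, 2 were at least 2-fold lower in replicate 2 (Alad and Cpox), against 33.8% of 8194 genes at that minimum. None was at least 2-fold higher, against 15.7% of those genes. The median log2 ratio was -0.69 for the 6 members and -0.30 for all 8194 genes, and 4 of the 6 lay below the all-gene median. All 6 passed the minimum mainly through the deeper replicate 1. A minimum on mean counts favours genes that are higher in that library. At a mean of at least 50 CPM (library-scaled counts) the all-gene median was 0.37. At that minimum 26.4% of 2576 genes were at least 2-fold higher in replicate 2 and 15.8% lower. Macrophage and granulocyte markers moved between the libraries too: 9 of 9 and 8 of 8 of those with enough counts were at least 2-fold lower in replicate 2. Their median log2 ratios were -3.56 and -3.35. These markers too passed the minimum mainly through replicate 1, so their counts past 2-fold are partly set by it. The part of these markers in the ratios of Alad, Urod and Cpox was not tested.

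The deposited transcript tables show which annotated forms the gene levels rest on. Cpox-201 and Fech-201 are the single annotated transcripts of their genes. Alad was carried by coding forms, Alad-201 at 96.9% of the gene level in replicate 1 and 70.1% in replicate 2, and Alad-202 at 3.02% and 29.9%. Ppox was led by the coding Ppox-201, at 81.0% and 68.9%, with Ppox-204, a processed transcript without an annotated reading frame, at 13.9% and 20.1%. All 80 counts of Uros were given to the coding Uros-204.

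Alas1 and Urod were different, since most of their level was given to forms not annotated as coding. For Alas1 the leading form was Alas1-208, annotated as a target of nonsense-mediated decay, at 41.5% and 71.7%. Alas1-206, a processed transcript, took 29.7% and 28.3%, and the coding Alas1-201 took 25% and 0%. The coding forms of Alas1 made up 4.12 TPM in replicate 1 and none of replicate 2, where all 24 counts went to other forms. With posterior means Alas1-206 led in replicate 1.

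Urod was led by Urod-209, a 598-base form annotated as retaining an intron, at 90.6% and 84.0%. The coding Urod-201 stood at 3.29 TPM, or 9.42%, in replicate 1 and had 0 counts in replicate 2. Short forms weigh more in TPM than in counts, and of the 749 counts of Urod in replicate 1, 575 were given to Urod-209 and 174 to Urod-201. Counted by coding forms alone, mean levels were 2.06 ± 2.91 TPM for Alas1 and 1.65 ± 2.33 TPM for Urod (n = 2), and 5 of 8 members kept their place in the order. The leading form was the same in both libraries for 6 of the 7 members with counts in both. The exception was Alas2, whose single counts were given to Alas2-201 in replicate 1 and Alas2-202 in replicate 2. By posterior means the lead was the same for 5 of the 7, and the exceptions were Alas1 and Urod, with Urod-210, a processed transcript, leading in replicate 2 at 46.7%.

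**Figure D3:**
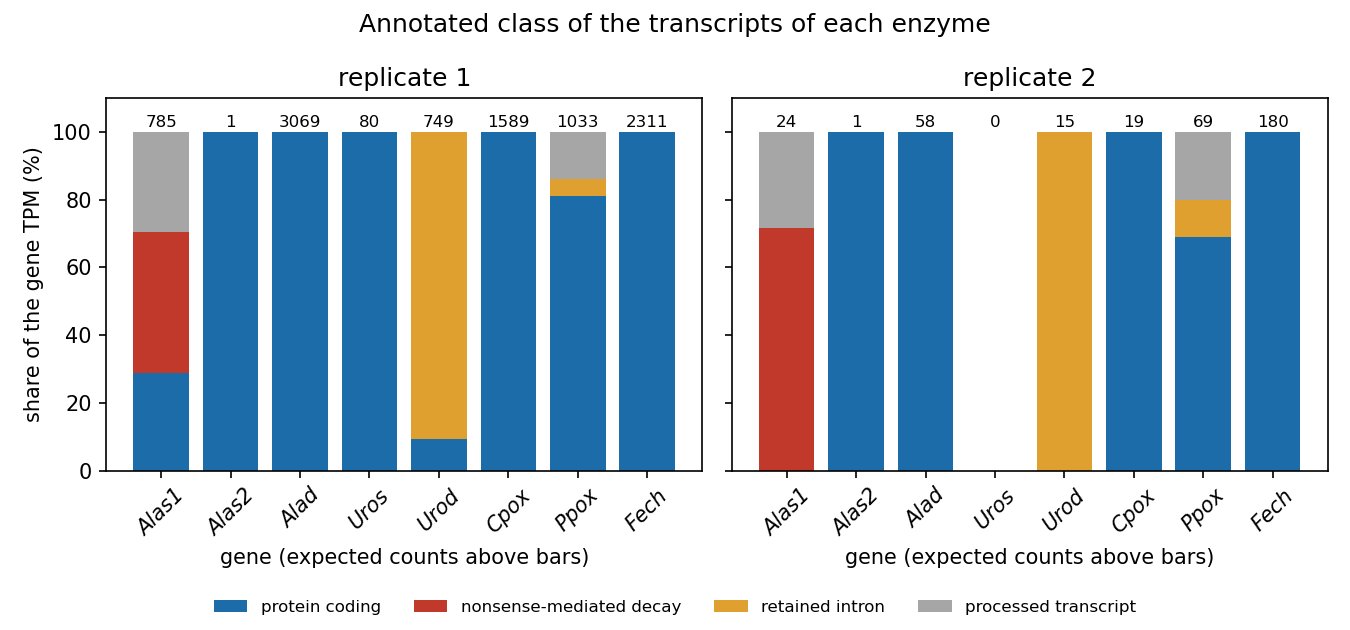
Share of each enzyme's TPM, in percent, given to annotated classes of transcript in replicate 1 (left) and replicate 2 (right), with the expected counts of the gene above each bar. Alas1 and Urod are mostly given to classes other than protein coding, Ppox partly, and Uros has no bar in replicate 2 because it had 0 counts there.

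Counts past 2-fold in the lists that follow stand beside the all-gene shares at the same minimum, 15.7% higher and 33.8% lower, with a median log2 ratio of -0.30. All 16 genes of precursor supply and mitochondrial transport reached a mean of 1 TPM, led by Tspo, an outer membrane protein that binds porphyrins and cholesterol, at 499.7 and 536 TPM. Slc25a39, a mitochondrial glutathione carrier, stood at 162 and 159 TPM, and Tmem14c, which carries protoporphyrinogen inward, at 179 and 53.3 TPM. Of 15 genes with enough counts, 1 was at least 2-fold higher and 4 were lower in replicate 2 (median log2 ratio -0.43), both shares being below those of all genes. The higher gene was Abcb6, a porphyrin transporter, named after its values were seen, at a ratio of 2.64 (interval 2.02 to 3.39). Tmem14c was among the lower ones, at a ratio of 0.348 (interval 0.275 to 0.435).

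Iron sulfur cluster assembly, on which the cluster of ferrochelatase depends, was read in all 12 listed genes. The highest were Glrx5, a mitochondrial glutaredoxin, at 225 and 155 TPM, Isca1 at 106.9 and 58.8 TPM and Hscb, a cochaperone, at 62.0 and 37.7 TPM. Of 11 with enough counts, 1 was at least 2-fold higher and 2 were lower (median log2 ratio -0.50).

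Of 12 genes of heme export, binding and breakdown, 10 reached a mean of 1 TPM. Blvrb, a biliverdin reductase, stood at 316 and 342 TPM, Pgrmc1, a heme-binding membrane protein that contacts ferrochelatase, at 100.5 and 187 TPM, and Slc48a1, a heme transporter, at 59.2 and 60.4 TPM. Flvcr2 and Hebp2 had no counts. Of 8 with enough counts, 1 was at least 2-fold higher and 5 were lower in replicate 2 (median log2 ratio -1.26, against -0.30 for all genes).

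Among regulators listed for a tie to heme or iron, 7 of 11 reached a mean of 1 TPM. Bach1, a repressor that heme inactivates, stood at 6.10 and 6.21 TPM, Nfe2l1 at 28.0 and 34.9 TPM and Nfe2l2, the oxidative stress factor, at 32.9 and 12.2 TPM. Nr1d1, the heme-binding nuclear receptor Rev-erb alpha, stood at 5.41 and 22.8 TPM, and Nrf1, the respiratory factor, at 7.11 and 2.85 TPM. The iron regulatory proteins were read at 3.20 and 1.75 TPM for Aco1 and at 0.40 and 0 TPM for Ireb2. Bach2 stood at 0.26 and 0.06 TPM and Nr1d2 at 0.14 and 0 TPM. Ppargc1a, the coactivator that induces Alas1 in fasting liver, had no counts. Of 7 with enough counts, 1 was at least 2-fold higher and 2 were lower (median log2 ratio 0.27).

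Alas2, with 1 count in each library, was near 0 beside high levels of most erythroid gene regulators. Gata1 was read at 219 and 1077 TPM (replicates 1 and 2), and its partner Zfpm1 at 1193 and 3175 TPM. Tal1 stood at 100.9 and 222 TPM, Lmo2 at 568 and 448 TPM and Ldb1 at 409 and 361 TPM, members of the complex that Gata1 joins. Gfi1b, a repressor of both lineages, stood at 217 and 603 TPM and Nfe2, a platelet factor, at 309 and 353 TPM. The lowest of the 8 was Klf1, the erythroid Kruppel-like factor, at 11.5 and 8.15 TPM. Of these 8 regulators, 3 were at least 2-fold higher in replicate 2 (Gata1, Zfpm1 and Gfi1b), against 15.7% of all genes, and 0 were lower, against 33.8%.

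Globin transcripts, whose proteins carry most heme of the blood, were abundant in the same libraries. Together they reached 9436 TPM (replicate 1) and 15775 TPM (replicate 2), which is 54.1 and 122 times the summed level of the 8 enzymes. The adult genes Hba-a1 (4480 and 12715 TPM), Hba-a2 (2506 and 2063 TPM), Hbb-bt (1719 and 513 TPM) and Hbb-bs (727 and 481 TPM) made up nearly all of it. Near-identical copies share fragments, so the split between Hba-a1 and Hba-a2 and between Hbb-bt and Hbb-bs is uncertain. Hbb-y, an embryonic globin, stood at 3.30 and 2.10 TPM, and Hbb-bh1, Hbb-bh2 and Hba-x had no counts.

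**Figure D4:**
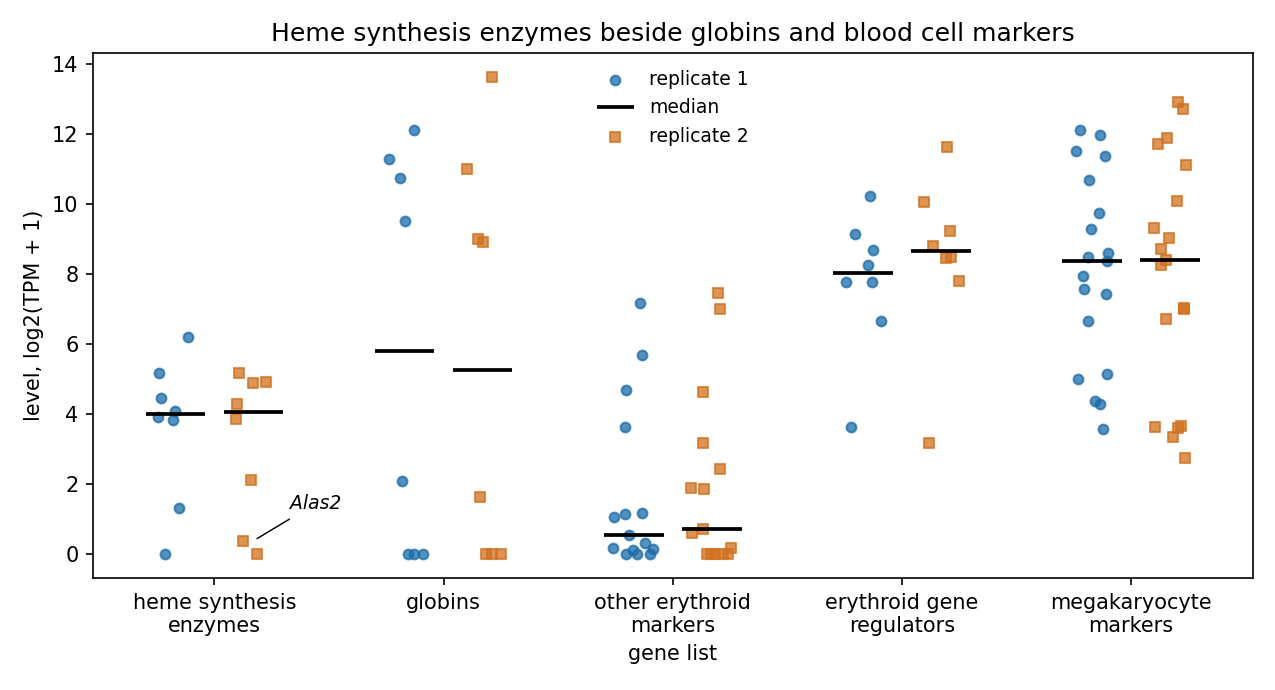
Level of each listed gene, as log2(TPM + 1), for the heme synthesis enzymes, globins, erythroid markers without globins, erythroid gene regulators and megakaryocyte markers, with circles for replicate 1, squares for replicate 2 and bars at the medians. Alas2 sits near 0 in both libraries, from 1 count in each, while 4 adult globins and 7 of 8 regulators lie above 100 TPM in both.

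A further list held hemoproteins other than blood globins together with some of their partners. Of its 18 genes, 13 reached a mean of 1 TPM, led by Cyba, a subunit of the phagocyte oxidase cytochrome, at 3283 and 12584 TPM, Tbxas1, the thromboxane synthase of platelets, at 255 and 170 TPM, and Cyb5r3, a reductase of cytochrome b5, at 122 and 210 TPM. Cyb5r3 is a flavoprotein and Ncf1 of the same list a cytosolic oxidase subunit, and neither carries heme itself. Ngb, Cygb and Mb, globins of other tissues, had no counts. Of 13 with enough counts, 2 were at least 2-fold higher and 5 were lower in replicate 2 (median log2 ratio -0.78), shares near the 15.7% and 33.8% of all genes.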

How the data were processed

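Per the file headers, the authors deposited for each library an expected count (an estimated number of fragments that need not be whole), TPM, FPKM, posterior means of these and, for each transcript, the percent it takes of its gene. The deposited percent values were recomputed here from transcript TPM. The deposited file lists give mm10 and GENCODE M4, and the aligner and quantifier are, in the sources used here, not given. After 26345 rows without an Ensembl identifier were left out (15 and 0 counts), 43346 genes remained. Symbols and positions were taken from GENCODE M21, on the same assembly (GRCm38), for 42462 genes (98.0%). Counts of the 8 members were whole in both libraries.

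Expected counts were scaled by edgeR 4.0.16 TMM factors (1.16 and 0.859, from 12132 genes with a mean of at least 10 counts). Ratio intervals are Clopper-Pearson, 95%, conditional on the summed count, and the steps were tested on simulated data. The floor behind a count of 0 was set at 3 counts, which is 0.0713 CPM (library-scaled counts) in replicate 1 and 1.32 CPM in replicate 2. Both describe counting error alone, because there is 1 library a side. The sources name no molecular identifiers by which copies could be told apart. Copies may thus be counted as separate fragments, and the intervals may be too narrow even for counting error. Calls at 2-fold used genes with a mean of at least 100 counts. Alternatives to the scaling were DESeq2 1.42.0 size factors, TMM over all genes and total counts. Other minimums, FPKM, posterior means and removal of the GC trend (20 bins) were tried too. Software was R 4.3.3, Python 3.11.15, numpy 2.4.6, pandas 2.3.3, scipy 1.17.1 and matplotlib 3.10.9.

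The members, the 14 lists and the rules were chosen with earlier results of these data known. The text names all members, all globins and all regulators. Of each other pathway list it names the 3 highest genes by mean TPM and those without counts, and it names the 3 listed genes nearest to Alas1, the 2 nearest to Alas2 (the third is not reported here) and the member transcripts at 20% or more of the gene level. Marker lists of other cells are given mainly as sums. Of 187 list entries, 185 were found, and Ahsp and Azu2 were not matched.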

Additional observations from a re-analysis of the deposited data

How the results depend on the processing

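The ratio of Urod turned direction by posterior means (1.09), an alternative chosen after the data were seen. The median log2 ratio of members was 0.97 at a mean of at least 50 CPM, where Fech was the only member left. The median of all 2576 genes at that minimum was 0.37. Uros, with 0 counts in replicate 2, also stood higher there by posterior means (1.88 and 6.85 TPM). The ratios of the other 5 enzymes compared kept their direction under every scaling, TPM ratio and GC correction run. The minimum of 50 CPM left 0 members at least 2-fold lower, against 15.8% of all genes there. With DESeq2 size factors 1 of 6 members was at least 2-fold lower (Cpox) and 1 higher (Fech), against 31.4% and 18.6% of all genes. With total counts 3 of 6 were lower (Alad, Urod and Cpox) and 0 higher, against 43.5% and 7.31%. TMM over all genes, an alternative chosen after the data were seen, gave the same 3 lower and 0 higher, against 35.6% and 13.4%. With the GC trend removed 3 were lower and 1 was higher (Fech), against 32.3% and 15.0%. With no count minimum 3 of 8 were lower and 1 was higher, against 45.3% and 22.4%. That higher member was Alas2, with 1 count in each library. Total counts left 1 member with an interval above 1 (Fech) and gave Alas1 at 0.566 and Ppox at 1.24. The median log2 ratio of all genes was -0.30 with TMM, -0.17 with DESeq2 and -0.74 with total counts. The split of all genes at 2-fold was 1288 higher and 2768 lower with TMM, 599 and 3568 with total counts and 680 and 407 at 50 CPM. Other minimums moved these counts: at 10 counts 1983 were higher and 5008 lower, and with none 3627 and 7326. Members that kept their place in the order of means numbered 2 to 6 when 1 library was left out, and 5 by protein-coding transcripts alone, an alternative chosen after the data were seen. The ratio of the mean levels of Alas2 and Alas1 was 0.0115, and 0.109 by posterior means. Within single libraries the ratio was 0.000701 to 0.0231. By coding transcripts alone Alas1 had 0 counts in replicate 2, so no such ratio could be formed there. Members at a mean of 1 TPM numbered 6 to 7, and the summed level was 129 to 174 TPM, without either library. By posterior means all 8 reached it. Replicate 2 limits every ratio, with 15 to 180 counts for the 6 enzymes compared. No paired analysis was possible because the labels give 1 group.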
